A study of Mus musculus with 35 samples.

Results

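Angiotensin II (Ang II), the vasoconstrictor peptide of the renin-angiotensin system, was infused for 7 days into male ApoE-/- mice aged 12 to 14 weeks, and gene expression in their suprarenal aorta was compared with that of saline-infused mice of the same genotype, sex and age. Both groups lacked apolipoprotein E, the ligand that clears lipoprotein remnants from blood, so the saline mice were not a wild-type control. The compared arrays were chosen by their sample labels, which gave 4 arrays of Ang II at 1000 ng/kg/min by osmotic minipump, from aortas that had not dissected, and 6 arrays of saline by minipump, 10 of the 35 arrays of the series. Each array held the RNA of 1 aorta from 1 animal, perfused with saline and frozen. The study also infused mice for 14 and 28 days, and it kept 3 aortas that had dissected by 7 days apart. Those 3 arrays entered none of the group means below. They did enter the estimate of the spread, the probe filter, and the alternatives with covariates, blocks or normalization between arrays. The Ang II group is therefore made of animals without dissection at 7 days, a limit on what it models.

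In this model Ang II raises blood pressure and loads the wall of the suprarenal aorta, where medial breaks, dissections and aneurysms can form. The wall of an aorta consists of an endothelial lining, elastic layers with contractile smooth muscle cells between them, and an adventitia of fibroblasts, vessels and nerves that is continuous with fat. In wound repair and fibrosis fibroblasts enter the cell cycle, enlarge their secretory pathway and lay down collagen, which is folded in the endoplasmic reticulum (ER), cut by procollagen proteases and crosslinked outside the cell by lysyl oxidases. Monocytes that arrive from blood become macrophages that clear debris and release growth factors.

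Expression was read on 2-colour arrays against 1 common mouse reference RNA. A level below is the log2 ratio of aorta to that reference on the same array, normalized within the array, so 0 means as bright as the reference and levels of different genes cannot be set against each other. A difference is the mean level of the Ang II aortas minus that of the saline aortas, on which 1 unit is a 2-fold change. A gene is said to have risen or fallen where limma's moderated test gave an adjusted p (Benjamini-Hochberg over all genes tested) of at most 0.05. Of 18687 genes tested, 5068 passed, which is 27.1 percent. In the Ang II aortas 2712 genes (14.5 percent) rose and 2356 (12.6 percent) fell, and the median difference over all genes was 0. The count was 3261 without Ang II array 1 and 3188 without Ang II array 2. At least 2-fold changes numbered 956 rises and 949 falls, and at least 4-fold changes 167 and 157. The median standard error of a difference was 0.185.

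Correlations of levels over genes were 0.895 to 0.95 among the Ang II arrays, 0.741 to 0.955 among the saline arrays and 0.562 to 0.882 between the groups. Aorta signal cleared background well on 52.4 to 58.4 percent of gene spots per Ang II array and on 50.1 to 62.2 percent per saline array. Smooth muscle was present in every aorta: Myh11, the smooth muscle myosin, had levels of 5.19, 4.54, 5.43 and 4.69 in the Ang II aortas, against 3.83 at the lowest, 4.89 at the median and 5.19 at the highest of the saline aortas. The endothelial cadherin Cdh5 read 5.18, 4.54, 5.41 and 5.40 under Ang II and 2.45, 5.33 and 6.00 at the lowest, median and highest under saline. Markers of neighbouring tissue were measured too, and their levels varied between arrays. The brown fat uncoupling protein Ucp1 had levels of 4.03, 5.72, 6.82 and 6.28 in the Ang II aortas, against 5.98, 6.79 and 7.06 (lowest, median, highest) in the saline aortas. Th, the tyrosine hydroxylase of catecholamine cells, read 0.61, -0.05, 0.12 and 2.83 under Ang II and 0.52, 3.73 and 4.36 under saline. The kidney marker Umod stayed between -0.29 and 0.49 on all 10 arrays, and the skeletal muscle myosin Myh4 reached 4.11 on Ang II array 2 and 3.73 on saline array 4. The adrenal cortex marker Cyp11b1 was not among the genes tested. Ang II arrays 1, 2 and 4 and saline arrays 1, 2 and 3 were scanned on 1 day, and Ang II array 3 and saline arrays 4, 5 and 6 on another. Saline array 5 held the lowest of these Cdh5 levels, and 4663 genes passed without it. Some saline levels divided along those days, so within-day differences are given beside the results they touch. In whole tissue, fewer cells of a type and less RNA per cell cannot be told apart.

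Activated-fibroblast and matrix genes led the rises. Cthrc1, a secreted collagen-associated protein of activated fibroblasts (probe at chr15:38916886-38916945 in the files' mm8 coordinates), had levels of 4.98, 4.92, 5.03 and 4.58 in the Ang II aortas, against -0.48 at the lowest, -0.18 at the median and 0.05 at the highest of the saline aortas. The Ang II arrays lay close together and far above every saline array, a difference of 5.06 (SE 0.418, adjusted p = 1.46e-09). Timp1, an inhibitor of metalloproteinases (chrX:20031508-20031566), read 3.62, 2.87, 2.51 and 2.85 under Ang II, against -2.74, -1.97 and -0.78 under saline, a difference of 4.86 (SE 0.513, adjusted p = 7.04e-08). A probe that the files name only NAP109359-1, at chrX:20029798-20030047 beside that of Timp1, read 2.56, 2.24, 1.63 and 2.02 against -2.69, -1.71 and -1.54 and rose by 4.09 (SE 0.45). Piezo2, a stretch-gated ion channel best known from touch neurons, stood at 3.97, 4.25, 4.35 and 3.88 under Ang II and at -0.23, 0.30 and 0.54 under saline. Its difference of 3.90 had the smallest SE of the 12 largest rises, 0.276 (adjusted p = 5.14e-11), and it was 3.65 on the first scan day and 4.31 on the second. Esm1, an endothelial proteoglycan of sprouting vessels, rose by 4.40 (SE 0.684), and Ccn5, a matricellular protein of smooth muscle, by 3.92 (SE 0.608). Their saline arrays spread widely, from -1.90 to 1.09 and from -0.71 to 2.65, and still lay below all 4 Ang II arrays.

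**Figure D1:**
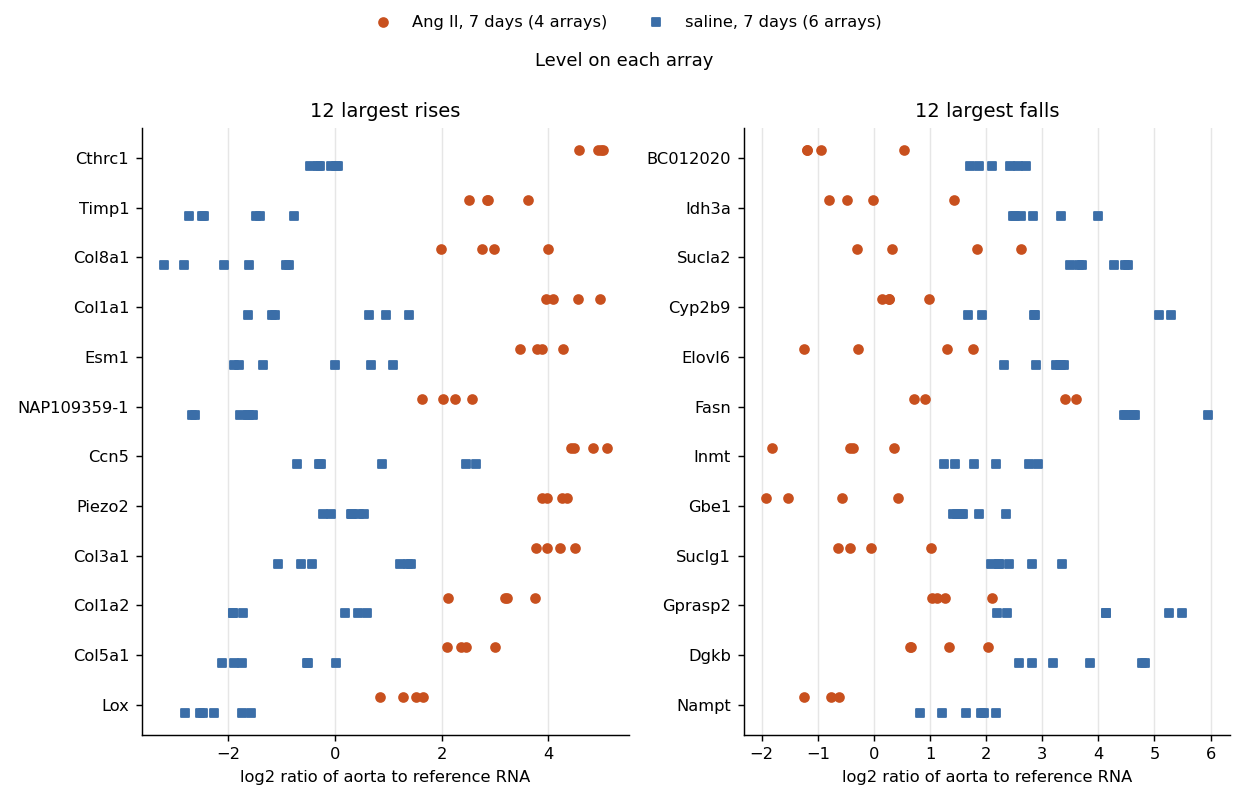
Levels (log2 aorta over reference, horizontal axis) of the 12 genes of largest rise and the 12 of largest fall, with 1 point per array, Ang II and saline in separate colours. Cthrc1 and Piezo2 show tight, well separated groups. The Ang II points of Idh3a spread over more than 2 units, with the highest, array 3, nearest to saline.

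Fibrillar collagens, which give the wall its tensile strength, rose together. Of 11 tested, 8 rose and 3 did not pass the test, with a median difference of 3.23. Col1a1, which with Col1a2 makes type I fibrils, had levels of 4.56, 4.96, 3.96 and 4.09 in the Ang II aortas, against -1.64, -0.25 and 1.39 in the saline aortas. The saline arrays of the first scan day, 1, 2 and 3, read 0.95, 0.63 and 1.39, and those of the second, 4, 5 and 6, read -1.13, -1.64 and -1.19. The groups did not overlap on either day, and the difference of 4.56 (SE 0.651, adjusted p = 9.46e-06) was 3.55 within the first and 5.28 within the second. Col3a1, of the finer fibrils mixed with type I, read 4.22, 4.50, 3.77 and 3.97 under Ang II and -1.07, 0.38 and 1.43 under saline. Col5a1, which starts fibrils and limits their width, read 2.46, 2.99, 2.09 and 2.36 under Ang II and -2.12, -1.14 and 0.01 under saline, a difference of 3.61 (SE 0.484). The probe of Col2a1, the fibrillar collagen of cartilage, also rose, with 4.22, 4.47, 3.73 and 3.89 against -0.49, 0.57 and 1.60, by 3.51 (SE 0.478). Its levels lay near those of Col3a1 on every Ang II array, and whether it also reads another collagen was not tested. For each of these chains the lowest Ang II array was above the highest saline array.

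Among collagens that do not form fibrils, 7 of 12 type VI and fibril-associated chains rose (median 1.25) and 5 of 10 network and basement membrane chains (median 1.12). Without Ang II array 1 the second count was 3. Col12a1, which bridges fibrils under tension, had levels of 1.91, 3.12, 2.23 and 1.60 in the Ang II aortas, against -1.46, -1.14 and -0.77 in the saline aortas, a difference of 3.32 (SE 0.335, adjusted p = 3.15e-08). Col8a1, a short-chain collagen that vascular cells make on injury, read 2.98, 3.99, 2.76 and 1.99 against -3.21, -1.86 and -0.86. Its partner chain Col8a2 rose by 3.27 (SE 0.548). The basement membrane chain Col4a1 rose less, by 1.23 (SE 0.252), with 3.47, 3.23, 3.42 and 2.94 against 1.47, 2.09 and 2.55. All of these groups were separate. Col18a1, the endostatin precursor, had a difference of 1.15 and did not pass (adjusted p = 0.282), and its Ang II values of 3.60, 2.40, 2.56 and 2.66 overlapped a saline range of 0.13 to 3.41.

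The enzymes that fold, modify and crosslink collagen formed the list with the highest share of risen genes among the matrix lists, 19 of 21, with a median of 1.63. Lox, the lysyl oxidase that starts crosslinking, had levels of 1.51, 1.65, 0.84 and 1.27 in the Ang II aortas, against -2.81, -2.38 and -1.58 in the saline aortas. Even the lowest Ang II array stood more than 2 units above the highest saline array, and the difference was 3.56 (SE 0.434, adjusted p = 8.23e-07). Loxl2, its relative, read 2.43, 2.78, 2.31 and 2.40 against -1.05, -0.36 and 0.36, a difference of 2.80 (SE 0.328). Plod2, the hydroxylase that prepares the telopeptides for stable crosslinks, read 0.86, 0.91, 0.66 and 0.27 against -2.85, -1.91 and -1.37 and rose by 2.69 (SE 0.354). Chaperones of procollagen rose with them: Serpinh1 (Hsp47) by 2.94 (SE 0.487) and the prolyl isomerase Fkbp10 by 2.84 (SE 0.376). The collagen proline hydroxylases P4ha2 and P3h1 rose by 1.72 (SE 0.274) and 1.41 (SE 0.243). Of 7 procollagen proteases and their helpers 4 rose, among them Bmp1, which removes the C-propeptide, by 2.00 (SE 0.329), and Pcolce, its enhancer, by 2.19 (SE 0.437). With neighbouring tissue as covariates, meaning the mean levels of the brown fat, chromaffin, hepatocyte and kidney tubule lists on each array, 13 of the 21 enzymes rose and 8 of the 11 fibrillar collagens.

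The ER and Golgi machinery that carries secreted protein rose more modestly. Of 31 genes of translocation and glycosylation 17 rose and 1 fell (median 0.60), of 33 coat and Golgi transport genes 19 rose and 1 fell (median 0.49), and of 30 chaperones and sensors of the unfolded protein response 17 rose and 1 fell (median 0.64). Surf4, a cargo receptor that takes secreted proteins from ER to Golgi, had levels of 0.72, 1.00, 0.74 and 0.61 in the Ang II aortas, against -1.17, -0.76 and -0.38 in the saline aortas. The groups were well apart for the size of the difference, 1.53 (SE 0.156, adjusted p = 3.57e-08). Kdelr3, a receptor that returns escaped chaperones to the ER, read 0.46, 0.89, 0.03 and 0.16 against -2.40, -1.65 and -0.93, a difference of 2.03 (SE 0.36). The translocon subunits Sec61g, Sec61a1 and Sec61b rose by 1.54 (SE 0.193), 1.42 (SE 0.212) and 1.36 (SE 0.208), and Rpn1 of the oligosaccharyltransferase by 1.38 (SE 0.218). Creb3l1, an ER-anchored transcription factor known to drive collagen genes in bone, rose by 0.75 (SE 0.16), or 1.49 on the scanner's and the authors' deposited ratios, with 0.41, 0.34, 0.15 and 0.41 against -0.77, -0.29 and -0.18. Sar1b, a COPII GTPase, was the member that fell in the coat list, by 0.92 (SE 0.244).

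Members of the unfolded protein response list that rose included luminal chaperones and disulphide isomerases. Pdia6 had levels of -0.02, 0.14, 0.31 and 0.71 in the Ang II aortas, against -1.34, -1.18 and -0.91 in the saline aortas, a difference of 1.47 (SE 0.243, adjusted p = 6.94e-05). Creld2, a small ER chaperone, read -0.61, -1.19, -0.28 and -0.54 against -2.76, -2.26 and -1.87 and rose by 1.59 (SE 0.297). Hsp90b1 (Grp94) rose by 1.32 (SE 0.285), Pdia4 by 1.36 (SE 0.215) and Manf, a secreted stress protein, by 1.30 (SE 0.229). Hspa5 (BiP), the most general of these chaperones, rose by 1.03 (SE 0.277) with 1 Ang II array, at -0.29, inside the saline range of -1.27 to -0.27. Among the 12 members that did not pass, Ddit3 (Chop) had a difference of -0.28 (adjusted p = 0.116), Trib3 -0.23 (0.296), Atf4 0.24 (0.307) and Xbp1 0.22 (0.396).

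Chaperone genes of this response are known for an ER stress element, read by the factors Atf6 and NF-Y. The motif, CCAAT followed after 9 bases by CCACG and searched on both strands in the 250 bases upstream of each start in RefSeq promoters of GRCm38.p6, was present in 7 of the 25 matched promoters of the list (28.0 percent) and in 33 of all 27025 promoters (0.122 percent). Of those 7 genes Hspa5, Hsp90b1, Pdia6, Creld2, Dnajc3 and Syvn1 rose (Syvn1 with an adjusted p of 0.0894 without Ang II array 3), and Derl3 had a difference of 0.85 that did not pass (adjusted p = 0.105). The 130 bases before the start of 4 of them are printed 5′ to 3′ along the gene's strand, to show where the motif (in capitals) lies in promoters whose genes rose. They lie at chr2:34771960-34772089 (+), chr10:86705445-86705574 (-), chr12:17266459-17266588 (+) and chr15:88819516-88819645 (+).
Hspa5: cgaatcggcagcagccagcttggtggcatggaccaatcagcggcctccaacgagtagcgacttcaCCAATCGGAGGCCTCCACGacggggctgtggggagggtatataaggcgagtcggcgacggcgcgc
Hsp90b1: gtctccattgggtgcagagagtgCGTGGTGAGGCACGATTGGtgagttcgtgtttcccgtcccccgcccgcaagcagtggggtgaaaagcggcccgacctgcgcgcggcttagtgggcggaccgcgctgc
Pdia6: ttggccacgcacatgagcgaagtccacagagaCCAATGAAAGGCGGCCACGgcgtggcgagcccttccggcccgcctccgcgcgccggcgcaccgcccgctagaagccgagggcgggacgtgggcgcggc
Creld2: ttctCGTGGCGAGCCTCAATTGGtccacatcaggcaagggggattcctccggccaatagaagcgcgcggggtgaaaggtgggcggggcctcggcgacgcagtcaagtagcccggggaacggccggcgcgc
The motif reads forward in Hspa5 and Pdia6 and on the opposite strand in Hsp90b1 and Creld2. A match is a run of letters, not a measured binding site, and each ER stress element contains a CCAAT box.

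Elastic fibre and matricellular genes rose in part. Of 14 elastic fibre components 8 rose (median 1.63). Elastin itself, Eln, read 3.89, 3.78, 4.16 and 4.10 in the Ang II aortas, against 1.60, 3.25 and 3.84 in the saline aortas, and did not pass (adjusted p = 0.15). Microfibril and fibre assembly genes moved further: Fbln2, a fibulin, read 0.39, 0.61, -0.08 and -0.13 against -2.58, -2.10 and -1.83, a difference of 2.37 with an SE of 0.228 (adjusted p = 1.51e-08). Fbn1, fibrillin 1, rose by 3.08 (SE 0.471), and Fbn2, the fibrillin of developing vessels, was well above background on every Ang II array and on no saline array and also rose (adjusted p = 0.000545), with no size given here. Of 22 matricellular proteins 17 rose (median 1.89). The count was 13 without Ang II array 1. Cilp, a cartilage intermediate layer protein, read 4.53, 4.75, 4.92 and 4.75 against 0.60, 2.01 and 2.31, a difference of 2.96 (SE 0.406), which was 1.82 with the scanner software's log ratio and with the authors' deposited log2 ratios. Ccn4, a Wnt-induced matricellular protein, rose by 3.06 (SE 0.438), and tenascin C (Tnc) by 1.99 (SE 0.385). Tenascin N (Tnn), well above background on no saline array, rose at least 3.05-fold, a bound that takes the dimmest reliably measured signal as the saline level. Spp1, osteopontin, had the widest Ang II spread of these, at -2.58, -3.94, -4.69 and -3.53, all above a saline range of -7.23 to -5.88, and rose by 3.02 (SE 0.821).

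Proteoglycans and hyaluronan genes followed. Has1, a hyaluronan synthase, had levels of 3.42, 3.26, 2.64 and 1.63 in the Ang II aortas, against -0.02, 0.23 and 0.43 in the saline aortas, a difference of 2.51 (SE 0.381, adjusted p = 2.16e-05). Vcan (versican), the large proteoglycan that binds hyaluronan, read 1.50, 2.09, 1.36 and 1.46 against -1.70, -0.75 and -0.22 and rose by 2.48 (SE 0.393). Their groups did not overlap, and 7 of 13 members of the list rose while 1, the hyaluronidase Hyal1, fell. Without Ang II array 2 the adjusted p of Hyal1 was 0.0703. Of 11 small leucine-rich proteoglycans 5 rose, and 3 without Ang II array 2. Lum (lumican), which spaces collagen fibrils, rose by 2.49 (SE 0.592), while decorin (Dcn) had a difference of 1.11 and did not pass (adjusted p = 0.121).

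Proteases and their inhibitors were uneven. Of 15 matrix metalloproteinases 5 rose (median 0.28). Mmp14, a membrane-bound collagenase that activates Mmp2, read 1.52, 1.72, 0.54 and 1.33 in the Ang II aortas, against -2.23, -1.98 and -1.48 in the saline aortas, a difference of 3.19 (SE 0.347, adjusted p = 1.12e-07). Mmp2, gelatinase A, rose by 1.51 (SE 0.355). Mmp9, gelatinase B of leukocytes, had a difference of 0.13 and did not pass, and Mmp12, macrophage elastase, was well above background on none of the 10 arrays. Of 5 tissue inhibitors only Timp1 passed the test, and Timp2 and Timp3 had differences of 0.96 (adjusted p = 0.205) and 0.78 (0.162). Among 17 cathepsins and cystatins 7 rose, led by Ctss of macrophages, by 2.78 (SE 0.488), and Ctsk, the collagen-cleaving cathepsin K, by 1.96 (SE 0.467).

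**Figure D2:**
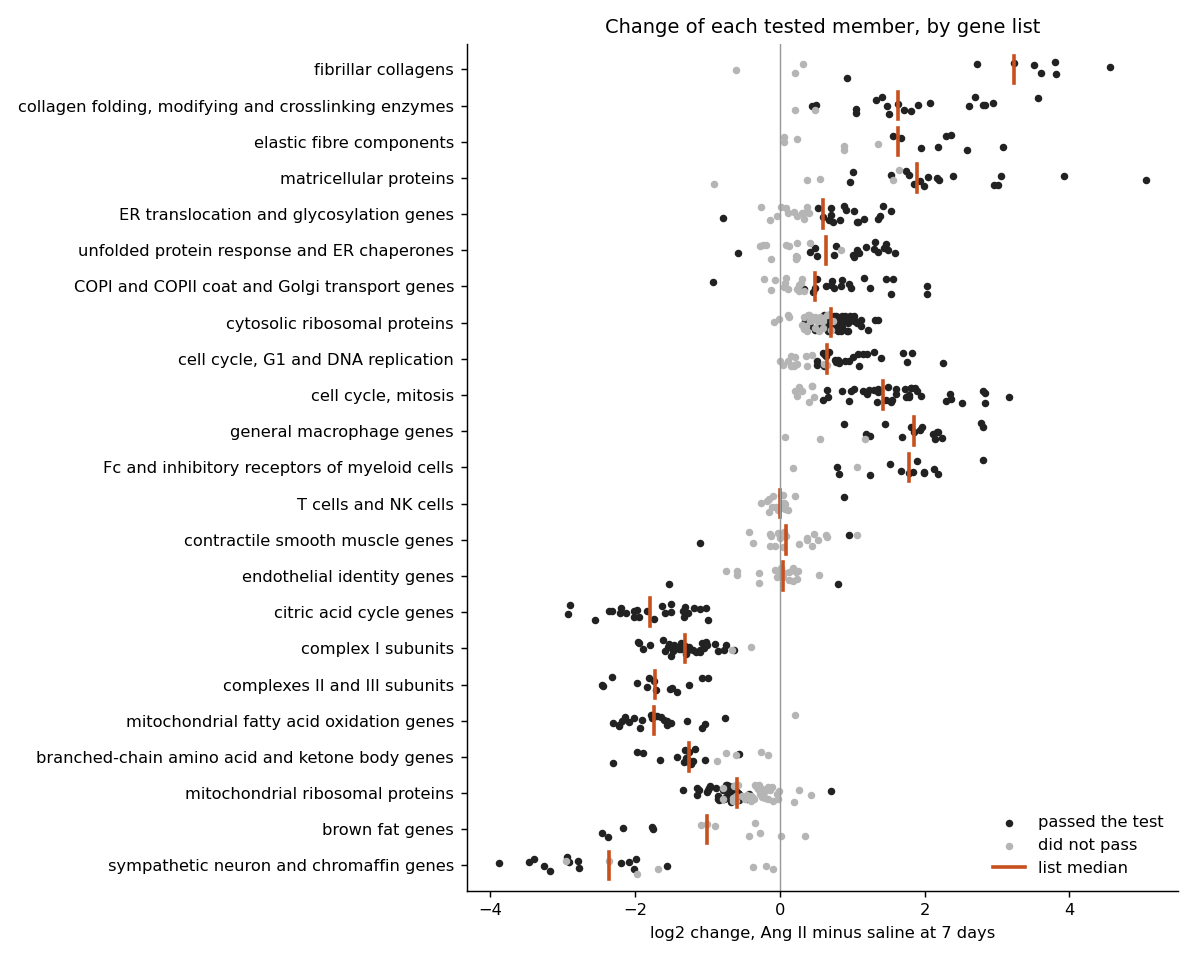
Differences (Ang II minus saline, log2, horizontal axis) of the members of 23 gene lists, 1 point per gene, with the median of each list marked. The fibrillar collagens lie furthest to the right (median 3.23), the mitosis and macrophage lists are mostly right of 0, and the citric acid cycle list lies wholly left of 0 (median -1.79).

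Growth factors and their antagonists rose gene by gene rather than as families. Fgf18, a fibroblast growth factor of skeletal and lung mesenchyme, had levels of 3.77, 5.04, 3.47 and 3.88 in the Ang II aortas, against -0.17, 0.55 and 1.18 in the saline aortas, a difference of 3.50 (SE 0.39, adjusted p = 1.86e-07). Wnt2, a ligand of mesenchyme, read 5.26, 5.07, 5.62 and 4.33 against 0.42, 1.89 and 2.35 and rose by 3.38 (SE 0.389), or by 1.78 with the log ratio of the scanner software or the one the authors deposited. Igf1, the insulin-like growth factor of fibroblasts and macrophages, read 4.17, 4.03, 4.10 and 3.58 against 1.00, 1.99 and 2.41, a difference of 2.13 (SE 0.253). In all 3 the groups were separate. Pappa, the protease that frees Igf1 from its binding proteins, was among the most evenly measured, with 2.08, 2.34, 1.88 and 1.89 against -0.02, 0.08 and 0.24, a rise of 1.95 (SE 0.176, adjusted p = 7.87e-09).

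Extracellular Wnt antagonists of the Sfrp family rose beside the ligand. Sfrp1 had levels of 3.97, 3.98, 3.98 and 3.85 in the Ang II aortas, against 1.69, 2.21 and 2.58 in the saline aortas, and rose by 1.79 (SE 0.27). Frzb rose by 2.71 (SE 0.585), with 4.29, 4.37, 3.99 and 3.52 against 0.08, 1.43 and 2.34. On both the scanner's and the authors' deposited ratios the difference of Frzb was 1.67 and did not pass (adjusted p = 0.124). Sfrp4 rose by 2.98 (SE 0.615), which was 1.73 on the first scan day and 4.27 on the second. Across the 31 Wnt genes tested 9 rose and 2 fell with a median of 0.25, and without Ang II array 2 there were 0 falls. Fstl1, a secreted follistatin-like glycoprotein, rose by 3.35 (SE 0.545). Gdf6, a BMP-family ligand of joints and tendon, was well above background on all 4 Ang II arrays and on no saline array and rose at least 4.11-fold. Of the TGF-beta ligands Tgfb1 rose by 0.83 (SE 0.148) and Tgfb2 by 1.59 (SE 0.405), and the latent TGF-beta binding protein Ltbp2 rose by 2.23 (SE 0.348).

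Single receptors and guidance cues rose, while the lists of such genes were mixed. Of 9 EGF family genes 2 rose (22.2 percent) and 2 fell (median -0.03). Of 33 axon guidance genes 6 rose (18.2 percent) and 1 fell (median 0). Of 23 integrin chains 7 rose (30.4 percent, median 0.25), and 0 with the tissue covariates. Among all genes tested 14.5 percent rose. Egfr, the epidermal growth factor receptor, had levels of 1.04, 1.36, 0.93 and 1.08 in the Ang II aortas, against -0.86, -0.65 and -0.36 in the saline aortas, a difference of 1.75 (SE 0.307, adjusted p = 0.000136). Slit2, a ligand of Robo receptors, read 0.09, 0.11, -0.19 and -0.64 against -3.09, -2.40 and -2.08 and rose by 2.33 (SE 0.352). Itga11, the collagen-binding integrin chain of fibroblasts, read 4.33, 4.92, 3.17 and 3.64 against 0.23, 1.72 and 2.54 and rose by 2.52 (SE 0.572). These groups did not overlap. Of 24 genes of the PDGF, VEGF and angiopoietin axis 6 rose and 2 fell, and without Ang II array 1 there were 3 rises and 1 fall. Vegfb, the VEGF of heart and brown fat, read -0.88, -0.82, -0.01 and -0.57 against 0.56, 0.79 and 1.38 and fell by 1.44 (SE 0.242). Of 29 renin-angiotensin and vasoactive genes 2 rose and 3 fell, and 1 fell without Ang II array 2. Among these Agtr1a, the receptor that Ang II binds, had 1.08, 0.59, 1.28 and 1.71 under Ang II and 1.27, 4.22 and 5.52 under saline. It fell by 2.57 (SE 0.788, adjusted p = 0.016) with overlapping groups, lost the call in 1 of the leave-one-out fits (adjusted p = 0.0572 without Ang II array 2), and had a difference of -0.64 with the neighbouring-tissue levels as covariates.

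Fibroblast genes rose while the contractile genes of smooth muscle did not as a list. Of 18 fibroblast and adventitia markers 12 rose (median 1.05). S100a4, a calcium-binding protein of fibroblasts and macrophages, had levels of 0.14, -0.54, -0.77 and -0.83 in the Ang II aortas, against -4.29, -3.60 and -2.86 in the saline aortas, a difference of 3.11 (SE 0.471, adjusted p = 2.1e-05). Cd248, a marker of pericytes and activated fibroblasts, read 3.23, 3.21, 2.52 and 2.58 against -1.07, 0.30 and 1.01 and rose by 2.74 (SE 0.395). Lrrc15, a surface protein of TGF-beta-driven myofibroblasts, was uneven within the Ang II group, at 1.72, 3.68, 1.70 and 2.99, against -0.02, 0.11 and 0.69, and rose by 2.34 (SE 0.449).

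Of 22 contractile smooth muscle genes 1 rose and 1 fell, with a median of 0.08, and without Ang II array 1 there were 0 rises. Tagln (SM22) had levels of 4.11, 3.64, 3.83 and 4.38 in the Ang II aortas and 1.82, 3.02 and 5.36 at the lowest, median and highest in the saline aortas. The saline arrays bracketed the Ang II arrays, and the within-day differences had opposite signs, -0.51 and 1.68. The list median likewise was -0.46 on the first scan day and 0.81 on the second, so its direction depended on the arrays compared. Acta2, smooth muscle actin, had a difference of 0.38 (adjusted p = 0.736). Of 22 genes of the synthetic smooth muscle state and the cytoskeleton 13 rose (median 0.93), and 9 without Ang II array 2. Tpm4, a tropomyosin of non-muscle and proliferating cells, read -0.04, -0.16, -0.28 and -0.59 against -1.81, -1.30 and -0.97 and rose by 1.07 (SE 0.173), and Lgals1, galectin 1, rose by 1.53 (SE 0.225).

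Single caveolae genes went the other way. Of 9 caveolins and cavins 3 fell and 6 did not pass (median -0.08), and 1 fell under scale normalization. The mean level of the list was 0.60 to 0.81 in the Ang II aortas, inside the saline range of 0.18 to 1.41. Cav2 had levels of -0.98, -1.14, -0.60 and -1.12 in the Ang II aortas, against 0.34, 0.93 and 1.28 in the saline aortas, a fall of 1.86 (SE 0.328, adjusted p = 0.000137). Cav1, the coat protein of caveolae, read 0.51, 0.38, 0.78 and 0.92 against 0.96, 1.74 and 2.25 and fell by 1.01 (SE 0.251), and Cavin2 fell by 1.26 (SE 0.321). Both caveolins are abundant in fat cells and endothelium as well as smooth muscle. Of 21 endothelial identity genes 1 rose and 1 fell with a median of 0.04, and the endothelial list had opposite signs on the 2 scan days, -0.22 and 0.55. Eng, a TGF-beta co-receptor, was the riser, by 0.81 (SE 0.237).

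Macrophage genes rose. Of 19 general macrophage genes 16 rose (median 1.86), and of 15 Fc and inhibitory receptors of myeloid cells 13 (median 1.78). Adgre1 (F4/80), the classical macrophage marker, had levels of 2.10, 1.76, 1.25 and 1.44 in the Ang II aortas, against -1.08, -0.53 and -0.20 in the saline aortas, a difference of 2.24 (SE 0.272, adjusted p = 7.91e-07). Csf1r, the receptor for the macrophage growth factor, read 2.36, 1.87, 1.47 and 1.91 against -0.47, -0.03 and 0.48 and rose by 1.93 (SE 0.282). Fcgr1, a high-affinity IgG receptor, rose by 2.81 (SE 0.405). In each case the groups were separate. Ccr2, the chemokine receptor of inflammatory monocytes, read 4.89, 4.75, 4.51 and 3.97 against 0.42, 1.43 and 2.28 and rose by 3.16 (SE 0.528).

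Genes of macrophage subsets did not move as 1 block. Trem2, a lipid-sensing receptor, had levels of 1.83, 1.36, 0.14 and 0.96 in the Ang II aortas, against -2.73, -2.38 and -1.99 in the saline aortas, a difference of 3.44 (SE 0.426, adjusted p = 1.05e-06). Ms4a7 read 2.31 to 3.68 over the Ang II arrays against -0.62, -0.46 and 0.37 and rose by 3.33 (SE 0.361). Gpnmb, a glycoprotein of lipid-laden macrophages, had a difference of 0.20 that did not pass (adjusted p = 0.797). Of the 16 genes of that Trem2 list 9 rose and 1, the lipoprotein lipase Lpl, fell. Without Ang II array 2 there were 6 rises. Of 16 genes of resident-type and alternatively activated macrophages 8 rose, with Mrc1, the mannose receptor, at 2.30 (SE 0.562) and the clotting factor chain F13a1 at 2.13 (SE 0.429). Lyve1, of perivascular resident macrophages and lymphatics, had a difference of 0.76 (adjusted p = 0.432), and Arg1 of 0.48 (adjusted p = 0.737).

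Chemokines that recruit monocytes rose too. Ccl7, a ligand of Ccr2, had levels of 0.11, 0.95, 0.29 and 0.19 in the Ang II aortas, against -3.28, -2.33 and -1.91 in the saline aortas, a difference of 2.93 (SE 0.601, adjusted p = 0.000711). Ccl8 read 6.29, 5.54, 5.32 and 5.50 against 1.00, 3.09 and 3.34 and rose by 2.97 (SE 0.438). Ccl9 read 2.36, 2.66, 2.23 and 2.91 against -0.53, -0.08 and 0.33 and rose by 2.61 (SE 0.361). All 4 Ang II arrays were above all saline arrays for each, and 8 of 20 CC chemokine genes rose in all. Il33, an alarmin of stromal cells, read 2.84, 3.27, 2.66 and 2.04 against -0.49, -0.13 and 0.45 and rose by 2.80 (SE 0.299, adjusted p = 8.28e-08), while its receptor Il1rl1 had a difference of -0.08 (adjusted p = 0.817). Il6 rose by 1.44 (SE 0.404). Its difference was 5.00 on the scanner's and the authors' deposited ratios, and the call was lost with median centring (adjusted p = 0.0569) and with the tissue covariates (adjusted p = 0.205). Cybb, the catalytic subunit of the phagocyte NADPH oxidase, rose by 1.97 (SE 0.302) and its partner Ncf1 by 1.38 (SE 0.242; 2.59 on those ratios), while Nox4, the oxidase of vascular cells, had a difference of 0.63 (adjusted p = 0.601).

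Few T cell genes passed. Of 20 T and NK cell genes 1 rose. Cd3e, of the T cell receptor complex, had levels of -0.07, -0.05, -0.01 and 0.00 in the Ang II aortas and -0.29, -0.02 and 0.15 in the saline aortas, and a difference of 0.04 (adjusted p = 0.877). Of 14 monocyte and neutrophil genes 4 rose (28.6 percent), with a median of 0.13, which was 0.71 with the brown fat covariate and 0.73 with the tissue covariates. The neutrophil gene S100a9 read 5.87, 3.68, 5.13 and 5.66 against 4.02, 4.82 and 5.94, a difference of 0.11 (adjusted p = 0.94). The B cell gene Cd79a was well above background on none of the 10 arrays. Of 14 B and plasma cell genes 0 rose and 0 fell (median 0.04), but their mean level was uneven. It was 0.97 on Ang II array 3, 0.76 on saline array 6 and 0.41 on saline array 3, and -0.51 to -0.11 on the others. The T and NK cell list was also highest on those arrays, at 0.60, 0.69 and 0.47. Of 26 interferon response genes 11 rose (median 0.51), and 6 without Ang II array 2. Oas2, a sensor of double-stranded RNA, read 1.12, 1.41, 1.02 and 0.97 against -0.99, -0.78 and -0.37 and rose by 1.86 (SE 0.283).

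Genes of cell division rose. Of 46 mitosis genes 38 rose (median 1.43), and of 39 genes of G1 and DNA replication 25 (median 0.65). Mki67, the proliferation antigen, had levels of -1.44, -1.09, -1.68 and -1.49 in the Ang II aortas, against -5.28, -4.58 and -4.08 in the saline aortas, a difference of 3.16 (SE 0.371, adjusted p = 4.47e-07). Kif20a, a kinesin of cytokinesis, read -1.12, -1.32, -1.17 and -1.58 against -4.58, -4.06 and -3.95 and rose by 2.84 (SE 0.26, adjusted p = 8.96e-09). Birc5 (survivin) read -0.60, -0.78, -1.46 and -1.54 against -4.41, -3.88 and -3.63 and also rose by 2.84 (SE 0.279). All levels stayed below 0, that is below the reference, which pools RNA of cell lines. The groups were separate by more than 2 units in each. Among replication genes the ribonucleotide reductase subunit Rrm2 rose by 2.26 (SE 0.31), thymidylate synthase Tyms by 1.75 (SE 0.175) and thymidine kinase Tk1 by 1.70 (SE 0.195). Pcna, the sliding clamp, had a difference of 0.37 (adjusted p = 0.0704), and the D-type cyclin Ccnd1 of 0.36 (0.179). The inhibitors Cdkn1a (p21) and Cdkn2a had differences of 0.28 (adjusted p = 0.696) and 0.07 (0.787). The replication list had 18 rises without Ang II array 2, and with the tissue covariates 22 mitosis and 8 replication genes rose. The mitosis median was 1.37 on the first scan day and 1.34 on the second.

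Promoters of mitosis genes are known for a CHR element, bound by the DREAM and MuvB complexes, and for CCAAT boxes bound by NF-Y. In the 250 bases upstream, on both strands, TTTGAA was present in 11 of 38 matched mitosis promoters (28.9 percent) and in 16.3 percent of all promoters. CCAAT was present in 27 of 38 (71.1 percent) and in 34.5 percent of all. The replication list had the 2 motifs in 16.1 and 61.3 percent of its matched promoters, and the unfolded protein response list in 0.0 and 84.0 percent. The promoters of Cdc20, Ube2c and Top2a are printed, 130 bases 5′ to 3′ along the gene's strand in GRCm38.p6, because each carries both motifs (in capitals). Cdc20, the activator of the anaphase-promoting complex, rose by 2.37 (SE 0.242), Ube2c, its ubiquitin-conjugating enzyme, by 1.87 (SE 0.241), and the topoisomerase Top2a, by 1.30 (SE 0.247), or 2.59 on the scanner's and the authors' deposited ratios. The regions are chr4:118437344-118437473 (-), chr2:164769799-164769928 (+) and chr11:99024190-99024319 (-).
Cdc20: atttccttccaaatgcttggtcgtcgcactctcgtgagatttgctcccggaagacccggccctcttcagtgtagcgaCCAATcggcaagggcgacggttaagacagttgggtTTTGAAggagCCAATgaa
Ube2c: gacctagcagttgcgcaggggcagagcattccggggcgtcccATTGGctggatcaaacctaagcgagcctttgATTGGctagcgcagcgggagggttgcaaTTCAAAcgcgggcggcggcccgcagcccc
Top2a: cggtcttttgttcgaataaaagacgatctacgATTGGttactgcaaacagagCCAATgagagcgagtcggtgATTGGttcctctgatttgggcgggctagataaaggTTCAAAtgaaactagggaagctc
CCAAT on the opposite strand reads ATTGG, and TTTGAA reads TTCAAA. In all 3 promoters the CHR lies within 30 bases of the start, downstream of a CCAAT box.

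Cytosolic ribosomal protein genes rose in part and by a small amount. Of 81 tested 54 rose, with a median of 0.71, and the mean level of the list was -0.28, -0.35, -0.77 and -0.71 in the Ang II aortas, against -1.51 at the lowest, -1.17 at the median and -1.03 at the highest of the saline aortas. The list means did not overlap, but many single genes were close to the threshold, and 23 rose without Ang II array 1, 24 with the brown fat covariate and 8 with the tissue covariates. Rps12 read 0.18, 0.03, -0.36 and -0.24 against -1.94, -1.38 and -1.13, a difference of 1.35 (SE 0.275, adjusted p = 0.000661), and Rpl41 rose by 1.32 (SE 0.229). Ribosomal protein genes have many processed pseudogenes, and their probes may read copies. Their mitochondrial counterparts moved down: of 78 mitochondrial ribosomal proteins 38 fell and 1 rose (median -0.59), and 22 fell without Ang II array 1. With the brown fat and with the tissue covariates 5 and 3 of them fell, with medians of -0.25 and -0.33.

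**Figure D3:**
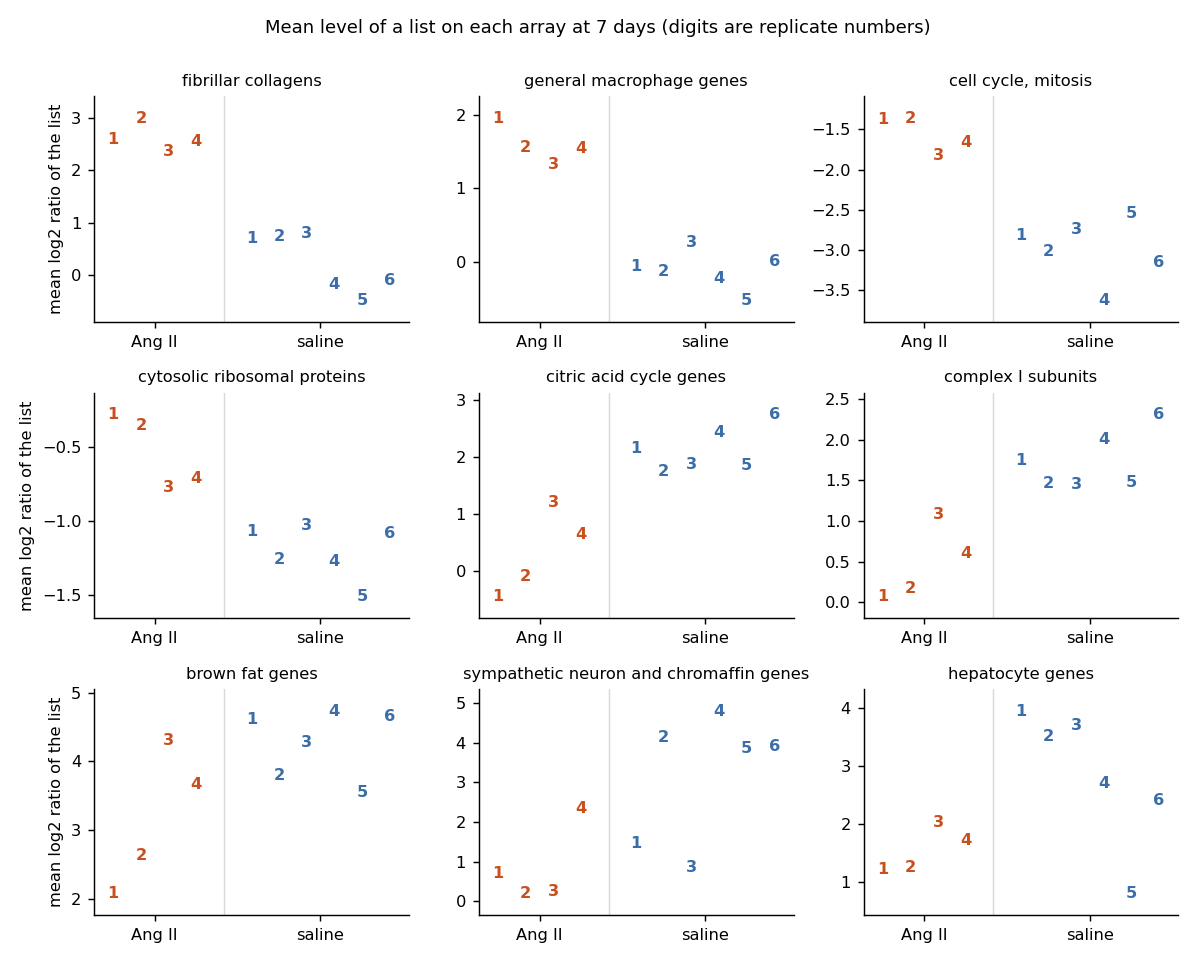
Mean level of 9 gene lists on each array (log2 aorta over reference, vertical axis), Ang II left and saline right, with digits for the replicate numbers. The fibrillar collagen, macrophage, mitosis and ribosomal protein lists are separate between the groups, and the brown fat, chromaffin and hepatocyte lists overlap. Saline arrays 1, 2 and 3 lie above 4, 5 and 6 for the collagens and the hepatocyte genes.

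Genes of mitochondrial energy metabolism led the falls. All 26 citric acid cycle genes tested fell, with a median of -1.79. Idh3a, a subunit of the cycle's NAD-dependent isocitrate dehydrogenase, had levels of -0.81, -0.48, 1.43 and -0.01 in the Ang II aortas, against 2.48, 2.73 and 3.99 in the saline aortas, and fell by 2.93 (SE 0.658, adjusted p = 0.00167). Ang II array 3 was the highest of its group and still below every saline array. Sucla2, of succinyl-CoA synthetase, read -0.30, 0.33, 2.62 and 1.84 against 3.49, 3.99 and 4.52 and fell by 2.90 (SE 0.606). Suclg1, its partner subunit, fell by 2.55 (SE 0.515), and Dld, the dihydrolipoamide dehydrogenase shared by 3 ketoacid complexes, by 2.36 (SE 0.504). Citrate synthase (Cs), the entry enzyme, fell by 1.50 (SE 0.336), with -0.62, -0.19, 0.69 and 0.37 against 1.06, 1.57 and 2.00.

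The respiratory chain fell in step. Of 36 complex I subunits 34 fell (median -1.31), of 14 subunits of complexes II and III all 14 (median -1.72), of 19 of complex IV 14 (median -1.26) and of 16 of ATP synthase 9 (median -1.08). Without Ang II array 1 or 2 the fewest that fell were 24, 11, 8 and 7. Uqcrfs1, the Rieske iron-sulphur protein of complex III, had levels of -0.57, -0.58, 1.34 and -0.06 in the Ang II aortas, against 2.03, 2.44 and 3.11 in the saline aortas, a fall of 2.46 (SE 0.499, adjusted p = 0.000635). Ndufs1, the largest complex I subunit, read -0.82, -0.47, 0.86 and 0.41 against 1.34, 1.86 and 2.13 and fell by 1.80 (SE 0.357). Cytochrome c (Cycs) fell by 2.44 (SE 0.57). In every case Ang II array 3 was nearest to saline and the groups stayed apart.

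Pathways that feed the cycle fell as well. Of 24 genes of mitochondrial fatty acid oxidation 23 fell (median -1.74), and 14 without Ang II array 1. Acadm, the medium-chain acyl-CoA dehydrogenase, had levels of 0.07, 1.03, 3.08 and 2.39 in the Ang II aortas, against 3.17, 4.03 and 4.37 in the saline aortas, and fell by 2.30 (SE 0.559, adjusted p = 0.00322). Of 21 genes of branched-chain amino acid and ketone body metabolism 16 fell (median -1.25). Aldh6a1, of valine breakdown, read 0.98, 1.11, 2.98 and 2.04 against 3.39, 4.06 and 4.72 and fell by 2.30 (SE 0.436), and Hibch of the same route fell by 1.98 (SE 0.462). The glycogen branching enzyme Gbe1 read -1.93, -1.53, 0.43 and -0.57 against 1.41, 1.57 and 2.35 and fell by 2.61 (SE 0.458). Ldhb, the lactate dehydrogenase chain of oxidative tissue, fell by 2.39 (SE 0.427), while Ldha, the glycolytic chain, had a difference of -0.70 (adjusted p = 0.0949). Slc16a3, a lactate exporter, rose by 1.59 (SE 0.281).

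Brown fat, a tissue dense in mitochondria, varied among the same arrays. The mean level of 13 brown fat genes was 2.09, 2.63, 4.31 and 3.67 on Ang II arrays 1 to 4 and 4.61, 3.80, 4.27, 4.73, 3.55 and 4.65 on saline arrays 1 to 6, so the groups overlapped, and 5 of 13 genes fell (2 without Ang II array 1). Ang II arrays 3 and 4, with brown fat in the saline range, had mean citric acid cycle levels of 1.20 and 0.64, and arrays 1 and 2, with the lowest brown fat, had -0.44 and -0.09. The saline aortas ran from 1.74 to 2.74. With the brown fat level as a covariate, which uses the same arrays, the cycle's median was -0.93 and 13 of 26 genes fell, and with the 4 neighbouring-tissue levels as covariates it was -1.07 with 13 falls. Complex I had medians of -0.58 and -0.75 under those fits with 10 and 6 falls, and fatty acid oxidation -0.75 and -0.99 with 5 falls in each. Within the second scan day, which holds Ang II array 3 alone, the cycle's median was -1.16. The fat cell markers Adipoq and Ucp1 did not pass: Adipoq had a difference of 0.07 (adjusted p = 0.914) and Ucp1 of -0.90 (0.165). The part of brown fat in the falls beyond these values was not tested.

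**Figure D4:**
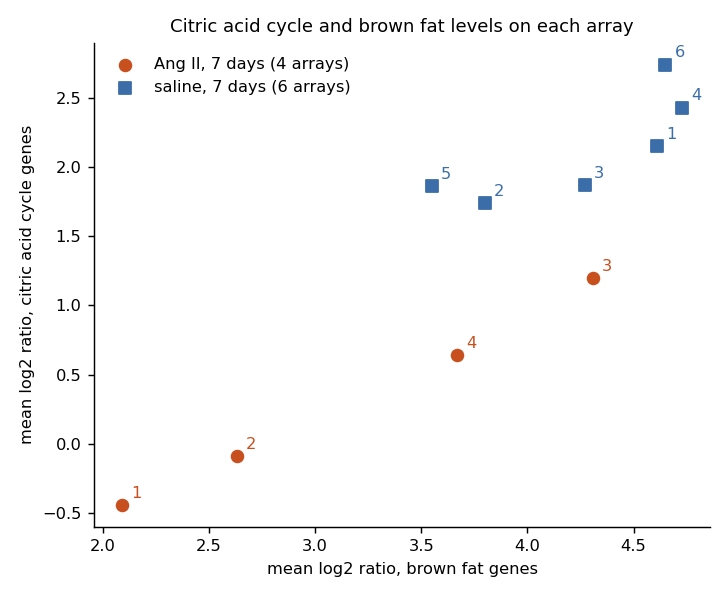
Mean level of the citric acid cycle list (vertical axis) against the mean level of the brown fat list (horizontal axis), both log2 aorta over reference, 1 point per array, Ang II and saline in separate colours. At brown fat levels between 3.55 and 4.31 both groups are present, and there the Ang II arrays read 0.64 and 1.20 and the saline arrays from 1.74 upward.

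Genes of fat synthesis and lipid uptake fell in part. Of 26 white fat and fat synthesis genes 9 fell (median -0.73), and 4 without Ang II array 1. The median was 0.07 with 3 falls under the brown fat covariate and -0.01 with 2 falls under the tissue covariates. Lpl, which frees fatty acids from lipoproteins, had levels of 2.53, 2.60, 4.40 and 3.31 in the Ang II aortas, against 4.99, 5.77 and 6.41 in the saline aortas, and fell by 2.47 (SE 0.463, adjusted p = 0.000301). Fabp3, a fatty acid carrier of heart and brown fat, read -0.09, 0.82, 2.67 and 1.98 against 3.32, 3.81 and 4.31 and fell by 2.46 (SE 0.5). Elovl6, which lengthens palmitate, fell by 2.69 (SE 0.644). Fasn, fatty acid synthase, read 0.72, 0.91, 3.60 and 3.40 against 4.45, 4.61 and 5.96, with saline array 2 left out as a flagged spot. It fell by 2.68 (SE 0.743), and without Ang II array 1 its adjusted p was 0.0526. Of 23 cholesterol synthesis and uptake genes 10 fell and 1 rose (median -0.92), but only 3 fell without Ang II array 1. Fdft1 (squalene synthase), the first enzyme committed to sterols, read -1.29, -1.46, -0.79 and -0.80 against 0.05, 1.03 and 1.30 and fell by 1.94 (SE 0.385).

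Other large falls had mixed roles. BC012020, a gene known by its cDNA number, had levels of -1.19, -0.95, 0.54 and -1.19 in the Ang II aortas, against 1.72, 2.27 and 2.71 in the saline aortas, a fall of 2.93 (SE 0.563, adjusted p = 0.000361). Inmt, a methyltransferase of small amines, read 0.35, -1.82, -0.38 and -0.43 against 1.25, 1.98 and 2.93 and fell by 2.63 (SE 0.499). Its difference was -2.93 with the brown fat covariate and -2.61 with the tissue covariates. Cyp2b9, a cytochrome P450 of liver, fell by 2.87 (SE 0.757), with a difference of -4.36 on the scanner's and the authors' deposited ratios, and Nampt, which makes the NAD precursor, by 2.50 (SE 0.494) over 3 Ang II arrays, since the spot on array 3 was flagged. Of the antioxidant enzymes Cat (catalase) fell by 1.62 (SE 0.433) and the mitochondrial peroxiredoxin Prdx3 by 1.38 (SE 0.34), while Gpx7, an ER peroxidase that aids disulphide formation, rose by 2.18 (SE 0.429), with 4.77, 4.50, 4.76 and 4.39 against 0.94, 2.56 and 3.07.

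Genes of sympathetic neurons and chromaffin cells fell with a wide spread in both groups. Chgb, a granin of their secretory granules, had levels of 2.23, 0.17, 0.58 and 5.27 in the Ang II aortas, against 3.89, 6.56 and 7.52 in the saline aortas. Ang II array 4 lay inside the saline range. The fall of 3.88 (SE 1.05, adjusted p = 0.00716) had an adjusted p of 0.047 without Ang II array 2, and the difference was -0.54 with the neighbouring-tissue levels, this list among them, as covariates. Of the 21 genes 14 fell (median -2.36), and 2 without Ang II array 2. The mean level of the list was 0.70, 0.21, 0.26 and 2.34 under Ang II and 1.47, 4.12, 0.86, 4.79, 3.85 and 3.90 on saline arrays 1 to 6. Saline arrays 1 and 3 thus lay below Ang II array 4 and above Ang II arrays 1, 2 and 3. The list's median was -1.07 on the first scan day and -3.99 on the second. Of 17 Schwann cell and myelin genes 8 fell and 1 rose, and 4 fell without Ang II array 2. Hepatocyte genes, 11 in number, had a median of -1.27, -2.34 on the first scan day and 0.01 on the second, and Alb did not pass (adjusted p = 0.117). Whether nerve, adrenal medulla or liver reached the samples in unequal amounts was not tested.

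On the 3 slides that held both groups the list medians could be compared within a slide (Ang II array 2 against saline array 3, 3 against 4, and 4 against 1). The fibrillar collagens differed by 2.87, 3.66 and 2.37, mitosis by 1.39, 1.79 and 1.12, general macrophage genes by 1.39, 1.56 and 1.68, ribosomal proteins by 0.69, 0.49 and 0.40, and the citric acid cycle by -1.82, -1.23 and -1.44. The chromaffin list did not keep its sign, at -0.37, -4.62 and 0.85. Of the 5068 genes called, 3306 had groups that did not overlap (among all genes tested, called or not, 12.2 percent were higher and 8.32 percent lower without overlap), 4686 kept their sign on all 3 slides and 2693 kept their call when each of the 10 arrays was left out in turn.

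The number of members past the threshold depended on the normalization between arrays, in limma's test throughout. With scale normalization 3 of 11 fibrillar collagens, 10 of 19 general macrophage genes, 1 of 46 mitosis genes and 1 of 39 replication genes rose, with medians of 3.14, 1.78, 1.73 and 1.00. In that setting 0 of 81 cytosolic ribosomal protein genes rose (3 at an unadjusted p of at most 0.05). Among other lists 5 of 21 collagen enzymes, 2 of 31 translocation, 1 of 30 unfolded protein response and 2 of 33 coat genes rose. Of 22 synthetic smooth muscle genes 0 rose (1 unadjusted), and of 16 resident-type macrophage genes 0 (3 unadjusted). No gene fell among the 26 of the citric acid cycle (3 unadjusted), the 36 of complex I (3 unadjusted), the 24 of fatty acid oxidation (4 unadjusted), the 78 mitochondrial ribosomal proteins (6 unadjusted) or the 26 of white fat (1 unadjusted). With median centring 7 fibrillar collagens, 13 macrophage, 25 mitosis, 8 replication and 6 ribosomal protein genes rose. So did 17 collagen enzymes, 6 translocation, 7 unfolded protein response, 8 coat, 9 synthetic smooth muscle and 6 resident-type macrophage genes. Under the same centring 18 genes of the cycle, 11 of complex I and 2 mitochondrial ribosomal proteins fell. Within the second scan day, with 1 Ang II array, 5 fibrillar collagens and 12 mitosis genes rose, 0 macrophage genes rose (13 unadjusted), and 0 genes of the cycle fell (1 unadjusted). Of the genes named as risen or fallen, 11 lost the call with median centring (Cavin2, Creb3l1, Dnajc3, Eng, Fasn, Hspa5, Il6, Sar1b, Syvn1, Tgfb1 and Top2a). With the tissue covariates 25 lost it (Agtr1a, Cat, Cavin2, Ccl7, Chgb, Creb3l1, Ctsk, Cyp2b9, Elovl6, Fasn, Fdft1, Hibch, Hspa5, Il6, Itga11, Lum, Mmp2, Mrc1, P3h1, Prdx3, Sar1b, Spp1, Syvn1, Tgfb2 and Top2a). Besides these, Th, which fell in the main fit, changed its sign there. With the brown fat covariate 7 lost the call (Cat, Cavin2, Cyp2b9, Fasn, Prdx3, Sar1b and Th).

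The effect of Ang II at 7 days was set against that at 14 and 28 days, each relative to saline of the same day, in 1 model. The effect differed between 7 and 14 days for 191 genes, 146 higher at 7 days (0.781 percent of genes tested) and 45 lower (0.241 percent). It differed between 7 and 28 days for 491, 369 higher (1.97 percent) and 122 lower (0.653 percent), and 115 genes differed from both later times in the same direction. Cell division genes were among them: 19 of 46 mitosis genes had a higher effect at 7 than at 14 days and 33 than at 28 days, with list medians of 1.43, 0.39 and -0.17 at 7, 14 and 28 days. Kif20a had effects of 2.84, 0.71 and 0.73 at those times, a difference from 14 days of 2.13 (SE 0.357, adjusted p = 0.00359), and Mki67 had 3.16, 0.86 and 0.91, a difference of 2.30 (SE 0.508).

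Matrix genes differed from the later times gene by gene. Of 11 fibrillar collagens 4 had a higher effect at 7 than at 28 days, with medians of 3.23, 1.71 and 0.97 at 7, 14 and 28 days. Cthrc1 had effects of 5.06, 3.42 and 1.73, and its difference from 28 days was 3.33 (SE 0.573, adjusted p = 0.00147), while that from 14 days, 1.64, did not pass (adjusted p = 0.11). Lox had 3.56, 0.99 and 0.93 and differed from both, by 2.57 (SE 0.594, adjusted p = 0.0332) and 2.63 (SE 0.594, adjusted p = 0.0139). Ckap4, an ER sheet protein, had 3.06, 0.67 and 0.64, and 5 of 33 coat and Golgi genes were higher than at 14 days and 8 than at 28 days. Other rises were also past the threshold at both later times. Fgf18 had effects of 3.50, 2.72 and 2.71 at 7, 14 and 28 days, Sfrp1 1.79, 1.43 and 1.48, and Ltbp2 2.23, 1.35 and 1.67, and the differences of these 3 genes did not pass. Piezo2, at 3.90, 2.37 and 1.83, passed at each time and also differed from both later times, by 1.53 (adjusted p = 0.0447) and 2.07 (adjusted p = 0.0021).

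The 19 general macrophage genes had median effects of 1.86, 0.56 and 1.24 at 7, 14 and 28 days. Adgre1 had effects of 2.24, 0.90 and 1.11, and its differences from 14 and 28 days, 1.33 and 1.13, did not pass (adjusted p = 0.0687 and 0.0861). Trem2 had effects of 3.44, 1.96 and 2.79, all of which passed, and Gpnmb had 0.20, 0.69 and 1.88, of which the last passed. The citric acid cycle had medians of -1.79, -0.38 and 0.09, and 7 of its 26 members had a lower effect at 7 than at 28 days. Fasn had effects of -2.68, 0.78 and 1.29, a difference from 28 days of -3.97 (SE 1.00, adjusted p = 0.029). Chgb had -3.88, 1.75 and -1.67 and differed from 14 days by -5.63 (SE 1.44, adjusted p = 0.0479). The number of calls of a lower effect at 7 days depended on the setting. It was 1381 from 14 days and 900 from 28 days with array weights, and 238 and 20 with the authors' deposited ratios. With limma 0 genes were lower than at 14 days under median centring (914 unadjusted), scale normalization (497), the brown fat covariate (1732) and the tissue covariates (247). Under the same settings 0 were lower than at 28 days (1223, 728, 885 and 418 unadjusted). There the calls of a higher effect numbered 30, 9, 12 and 0 from 14 days and 12, 19, 38 and 5 from 28 days. The difference of Chgb from 14 days was -4.94 (adjusted p = 0.12) with median centring and -0.70 (0.915) with the tissue covariates. That of Fasn from 28 days was -4.28 (adjusted p = 0.198) with median centring, -1.87 (0.479) with the brown fat covariate and 1.96 (0.846), with the sign turned, under scale normalization. Both counts were also sensitive to single arrays. For 14 days, 28 genes passed without Ang II array 2, 57 without Ang II array 1, 64 without saline array 4, 85 without saline array 2 or 6, 107 without saline array 5, 544 without saline array 1 and 721 without saline array 3. For 28 days, 159 passed without Ang II array 2, 192 without Ang II array 1, 239 without saline array 6, 241 without saline array 4, 764 without saline array 5 and 869 without Ang II array 3.

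**Figure D5:**
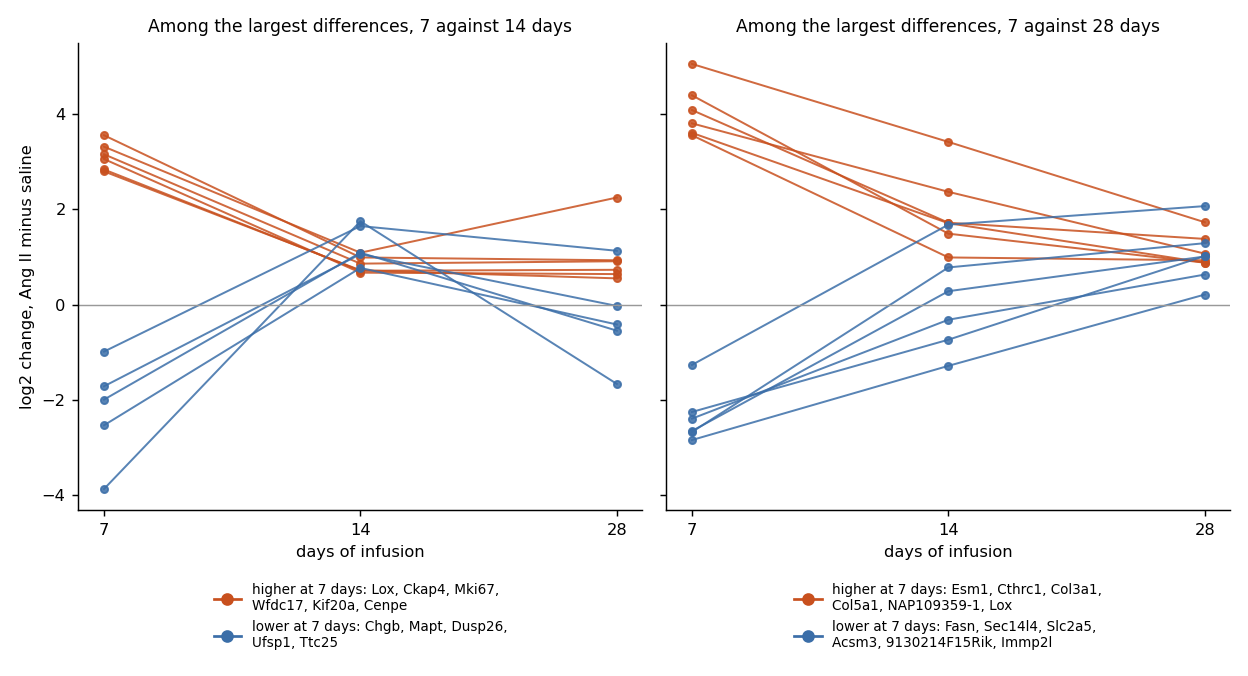
Effect of Ang II over saline of the same day (log2, vertical axis) at 7, 14 and 28 days for genes among those whose effect at 7 days differed most from 14 or from 28 days, 1 line per gene. Lox (3.56, 0.99 and 0.93) and Kif20a (2.84, 0.71 and 0.73) are highest at 7 days, and Fasn (-2.68, 0.78 and 1.29) is below 0 only there.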

How the data were processed

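RNA of single suprarenal aortas was hybridised to 35 Agilent 2-colour arrays, aorta in Cy5 after linear amplification and a mouse reference RNA in Cy3 by direct reverse transcription, per the labels' protocols, with no dye swap, so a dye effect common to all arrays cancels between groups. The authors deposited spot intensity values per channel and a log10 ratio, both made by the scanner software (Agilent Feature Extraction, version 9.5.3.1 in the submitters' processing notes), and a table of log2 ratios. Set against the log10 ratios, the authors' deposited log2 values had a slope of 3.321 to 3.341 per array, the factor between the 2 logarithms, and so run the same way (aorta over reference). Each array held 45018 spots, 1639 of them controls.

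Mean intensities were background-corrected (normexp, offset 50) and normalized by loess within each array with limma 3.58.1 (R 4.3.3). Flagged spots were left out (140 values in the genes tested), spots of a probe averaged, and a probe kept where 3 or more arrays showed its aorta signal well above background. The probe of highest mean brightness stood for a gene, and in 29 of 6495 genes with more than 1 probe the probes were called both ways. Probes were named by accession (24402), current symbol (6284) or older symbol (2418), and 8070 kept the file's name. Genes without a current symbol are named as in the files. Probe positions are those of mm8 in the files.

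One limma model with a mean for each of 7 groups (28 residual degrees of freedom) gave the Ang II minus saline difference at 7 days and its differences from 14 and 28 days, with moderated tests and Benjamini-Hochberg adjustment over all genes. The model was run on simulated data with planted changes and independent noise for each gene, which checks the code only. Tissue content and scan day were not simulated. The labels give separate animals. The number of arrays limits the precision, and a group of 4 arrays gives only a coarse view of spread. Genes were named by size of change and role within lists (the 12 largest rises and falls without overlap, up to 5 members per list and direction, members needed to describe a list, the 6 largest differences per direction and later time). A gene that this rule names is not reported here. The genes, lists and tests were chosen with earlier results of these data known. A list is described by its counts and median only. Where a gene was not well above background in a whole group, a fold is given as a lower bound. Promoter sequences are those of RefSeq on GRCm38.p6. Alternatives covered normalization, probe filter, blocks for slide, scan day and replicate number, array weights, covariates for neighbouring tissue and each array left out.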

Additional observations from a re-analysis of the deposited data

Results flagged for a closer look

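A value far from the rest of its group was found in 17 of 443 groups of values checked, where chance alone flags about 1 in 20. Among the Ang II arrays, array 3 was high for BC012020 (0.54, the others at -1.19 to -0.95) and Cyp2b9 (0.98, the others 0.15 to 0.27), array 2 for the muscle myosin Myh4 (4.11, the others -0.08 to 0.16), and array 4 was low for Sar1b (-1.09, the others -0.41 to -0.32) and for Sfrp1 (3.85, the others 3.97 to 3.98). Saline array 5 accounted for 8 of the 17. It was low for Alb (0.06), Ccl8 (1.00), the endothelial cadherin Cdh5 (2.45, the others 4.95 to 6.00), Gpx7 (0.94) and Lyve1 (1.00), and for the mean levels of the renin-angiotensin and vasoactive list (1.23), the Trem2 macrophage list (-0.42) and the resident-type macrophage list (0.80). Other saline arrays stood apart once each or more, array 1 for Ddit3 (-0.47) and Lrrc15 (0.69), array 4 for Tk1 (-3.16) and array 6 for Fasn (5.96).

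The effect of Ang II differed between 7 and 14 days for 191 genes by limma's test of the difference. The largest differences above 0 were those of Lox (2.57), Ckap4 (2.38), Mki67 (2.30), Wfdc17, a secreted macrophage protein (2.23, SE 0.542), Kif20a (2.13) and Cenpe, a centromere kinesin (2.09, SE 0.383). Among the largest below 0 were those of Chgb (-5.63), the neuronal tubulin-binding protein Mapt (-3.30, SE 0.838), Dusp26 (-3.09), Ufsp1 (-2.78) and Ttc25 (-2.63).

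Between 7 and 28 days 491 genes differed. Those of largest difference above 0 were Esm1 (3.52, SE 0.937), Cthrc1 (3.33), Col3a1 (2.74, SE 0.773), Col5a1 (2.73, SE 0.664), the probe NAP109359-1 (2.72) and Lox (2.63). Below 0 they were Fasn (-3.97), Sec14l4 (-3.67), the fructose transporter Slc2a5 (-3.34, SE 0.918), Acsm3 (-3.28), 9130214F15Rik (-3.06) and Immp2l (-3.04).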

How the results depend on the processing

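The count of 5068 changed genes at 7 days was 1559 with median centring in place of loess, 882 (695 higher and 187 lower, against 2712 and 2356) with scale normalization, 3224 with slide as a block, 2742 within the first scan day, 200 within the second, 7905 with array weights, 1329 with neighbouring-tissue covariates, 1905 at 2-fold or more, and 3188 to 5525 with each array left out. Of the main calls 876 remained under scale normalization and 1244 with the tissue covariates. The 191 differences from 14 days were 876 with the scanner software's log ratio, 875 with the authors' log2 values, 30 with median centring, 9 with scale and 552 with quantile normalization, 101 with no probe filter, 733 with only the groups named, 28 with slide and 82 with scan day as a block, 2569 with array weights, 0 with tissue covariates, 12 with the brown fat covariate (chosen after seeing the data) and 28 to 721 with each array left out. The 491 differences from 28 days were 230, 230, 12, 19 and 312 under the same ratios and normalizations, 238 with only the groups named, 171 with slide as a block, 1928 with array weights, 5 with tissue covariates, 38 with the brown fat covariate, 259 without the arrays of highest and lowest share of spots above background (chosen after seeing the data), and 159 to 869 with each array left out. With the replicate number as a block the counts were 4932, 290 and 226. The numbers do not pair the animals, since deviations of same-numbered arrays correlated at -0.0537, -0.011, 0.0361 and 0.326 and only Ang II array 4 correlated best with its own number. Of 138 called genes named here 92 lost the call under scale normalization, 93 of 137 within the second scan day, 25 with tissue covariates and 11 with median centring. Th alone reversed, at 0.22 with tissue covariates that hold it. The causes were not tested, except that the within-day fits hold fewer arrays. List medians of the collagens, macrophages, mitosis and cytosolic ribosomal proteins stayed above 0 and those of the citric acid cycle and complex I below 0 under all alternatives run. Those of the contractile, endothelial, brown fat, chromaffin and hepatocyte lists changed sign. The highest chromaffin median, 0.04, came with the tissue covariates, which include that list's own mean, so its sign there says nothing about the list. The median of all genes stayed between -0.07 and 0.03.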

Other observations

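Of 19 cartilage and bone genes 8 rose and 1 fell, with a median of 0.22. The single genes that follow, some of them of tendon and cartilage, were picked after their values were seen because they had risen or fallen. Scx, the tendon transcription factor scleraxis, had levels of 0.59, 1.38, 0.43 and 0.82 in the Ang II aortas, against -2.10 at the lowest, -1.12 at the median and -0.34 at the highest of the saline aortas, a difference of 1.94 (SE 0.474, limma's adjusted p = 0.00337). Tnmd, the tendon protein tenomodulin, was well above background on all 4 Ang II arrays and on no saline array and rose at least 3.30-fold. Prg4, the lubricating proteoglycan of joints, read 4.22, 4.58, 4.54 and 4.10 against 0.16, 1.11 and 1.70 and rose by 3.32 (SE 0.604), and Sox9, the transcription factor of cartilage, rose by 1.54 (SE 0.279). All 4 Ang II arrays were above all 6 saline arrays for each of these genes.

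Long non-coding transcripts were among the rises too. H19, an imprinted RNA of fetal tissue, had levels of 1.02, 1.64, 0.33 and 0.39 in the Ang II aortas, against -1.88, -1.62 and -1.32 in the saline aortas, a difference of 2.47 (SE 0.31). Dnm3os, the host transcript of microRNAs of mesenchyme, read 0.60, 1.11, 0.66 and 0.71 against -1.80, -1.34 and -0.75 and rose by 2.08 (SE 0.318). CYTB, the cytochrome b that the mitochondrial genome encodes, read 0.22, 0.47, 1.74 and 1.26 against 2.71, 3.00 and 3.39, a difference of -2.09 (SE 0.538), which was -0.97 with the brown fat covariate.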
